A study of Mus musculus with 15 samples.

Results

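The 9 genes of fatty acid uptake and triglyceride resynthesis were followed in RNA from mouse distal jejunum, the end of the middle small intestine. They were chosen by symbol as Fabp1, Fabp2, Slc27a4, Acsl5, Mogat2, Dgat1, Dgat2, Agpat2 and Gpat3. All 9 were among the 26844 genes of the deposited table, and all 9 were among the 14299 that passed the filter on low values and were tested. The mice were C57BL/6 males of 13 to 15 weeks, either wild type (WT) or global knockouts for both Aster-B and Aster-C (KO). The Asters are sterol carriers that move cholesterol arriving at the plasma membrane into the endoplasmic reticulum. Every mouse ate a diet with 0.08% cholesterol, and the ezetimibe groups ate the same diet with 0.01% ezetimibe, a blocker of the intestinal cholesterol importer NPC1L1. There were 4 WT and 3 KO libraries on the control diet, and 4 WT and 4 KO libraries on ezetimibe.

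In the absorbing cell of the gut, the enterocyte, fatty acids and monoacylglycerol from digested fat enter through the brush border and are rebuilt into triglyceride in the endoplasmic reticulum. Fatty acid-binding proteins hold the fatty acids in the cytosol, acyl-CoA synthetases activate them, and acyltransferases attach them to monoacylglycerol or, in a parallel route, to glycerol phosphate. The triglyceride leaves in chylomicrons or is kept for a time in lipid droplets.

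Whole reads recovered from the normalised counts came to between 13855034 and 19307079 per library. Gramd1c and Gramd1b, the genes of Aster-C and Aster-B, were lower in every KO library than in every WT library of the same diet. Gramd1c had log2 fold changes of −3.28 on the control diet and −3.34 on ezetimibe (adjusted p = 9.32e-06 and 2.31e-06 in limma), and Gramd1b had −1.44 and −0.82 (adjusted p = 0.0022 and 0.171 in limma). The sources used here do not give the deleted exons, so remaining reads cannot be assigned to them. All 12 enterocyte markers examined, among them Alpi, Sis and Lct, were tested and none was at 0 in any group. Summed smooth muscle markers reached at most 200.7 normalised counts in a library. In a bulk sample, fewer cells of a type and less RNA per cell cannot be told apart.

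The genes differed widely in level. Divided by the summed length of its exons, Fabp2 had a mean of 294358 normalised counts per kb over the 15 libraries. Its reads, not divided by length, made up between 1.35% and 2.27% of all counts in a library. Fabp1 followed with 70663 per kb. Below these binding proteins came Acsl5 with 7841 per kb, Slc27a4 with 6957, Dgat1 with 4983, Mogat2 with 4303, Dgat2 with 2720, Agpat2 with 2601 and Gpat3 with 1132. The per-kb ranges over libraries did not overlap between Fabp2 and Fabp1, between Fabp1 and Acsl5, or between Agpat2 and Gpat3. They overlapped for every other pair of neighbours in the order. With the length of the longest transcript in place of all exons, Dgat1 stood above Slc27a4 and Agpat2 above Dgat2. Within a gene, the highest library exceeded the lowest by between 1.35-fold for Dgat1 and 2.49-fold for Dgat2.

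Fabp1 encodes the liver-type fatty acid-binding protein, which small intestine and liver share and which also binds other hydrophobic ligands. The gene lies on mm10 chromosome 6 from 71199827 to 71205023 on the plus strand (ENSMUSG00000054422). In the 4 WT control libraries it had 37405, 36225, 27408 and 42119 normalised counts, and in the 3 KO control libraries 57988, 61596 and 40898. On ezetimibe it had 37183, 31194, 30119.9 and 38436 in WT, and 33361, 31424, 37758 and 43037 in KO. KO control replicates 1 and 2 held the highest values of all 15 libraries, while KO control replicate 3 stood below WT control replicate 4, so the groups overlapped. On the control diet the log2 fold change of KO over WT was 0.57 ± 0.178 (SE, limma, 95% interval 0.20 to 0.95), or 1.49-fold. It had an unadjusted limma p of 0.00544 and did not pass after adjustment over all genes (adjusted p = 0.146 in limma). The count tests split on this gene, with DESeq2 calling it (adjusted p = 0.033) and edgeR's quasi-likelihood test not (adjusted p = 0.126). Over the 20 alternative settings and left-out libraries its adjusted p ran from 0.033 to 0.386. The authors' deposited table lists Fabp1 as higher in KO on the control diet, at a log2 fold change of 0.58 (adjusted p = 0.0329). On ezetimibe the log2 fold change of KO over WT was 0.09 ± 0.165 (SE, adjusted p = 0.809 in limma).

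**Figure D1:**
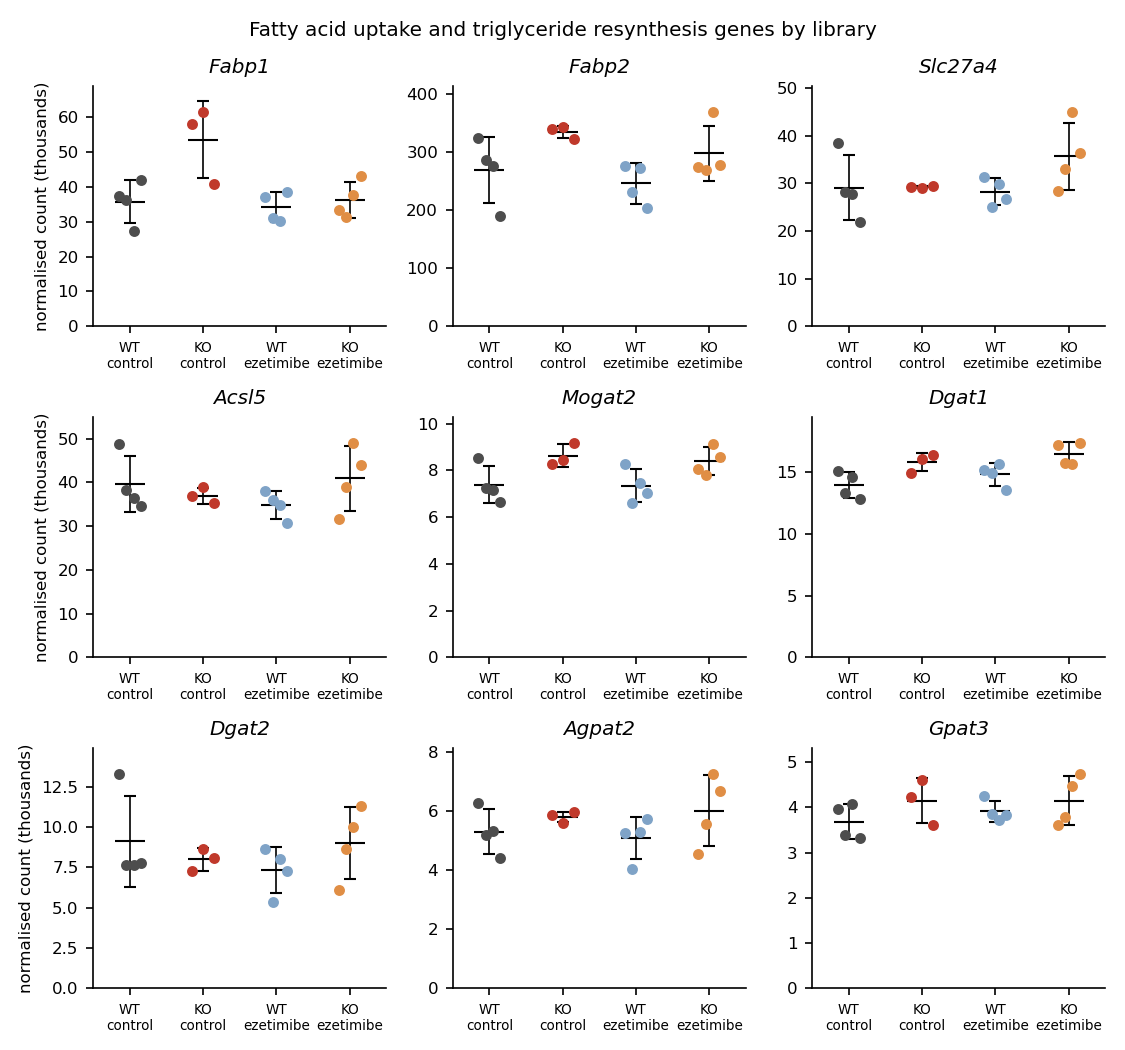
Normalised counts of each of the 9 genes (vertical axes, each from 0, ticks as labelled) in the 15 libraries, grouped on the horizontal axis by genotype and diet. Points are libraries, and the horizontal line and error bar are the group mean ± SD. Fabp1 is highest in KO control replicates 1 and 2, at 57988 and 61596, and Dgat2 in WT control replicate 1, at 13310, stands apart from the other libraries of its group.

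Ezetimibe and the control diet were then compared for Fabp1 within each genotype. In KO the log2 fold change on ezetimibe was −0.54 ± 0.178 (SE, limma, 95% interval −0.92 to −0.17; unadjusted p = 0.00778, adjusted p = 0.0978 in limma). This value and the one for KO on the control diet share the 3 KO control libraries. DESeq2 called the ezetimibe difference (adjusted p = 0.0247) and edgeR did not (adjusted p = 0.0784). Without KO control replicate 3, the lowest of its group, limma called it as well, at −0.73 (adjusted p = 0.0482), in a fit that called 2.97% of all genes, and over 20 alternatives the adjusted p ran from 0.0186 to 0.380. In WT the log2 fold change was −0.06 ± 0.165 (SE, adjusted p = 0.999 in limma). The difference between the diets' genotype effects, tested as an interaction, was −0.49 ± 0.243 (SE, adjusted p = 0.681 in limma) and was not called.

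The bases before the start of transcription are shown for the pair of binding protein genes because they head the order of levels and only one of them differed beyond an unadjusted p of 0.05. Both windows hold the 250 bases upstream of the RefSeq start (RefSeq, GRCm38.p6, plus strand), at chr6:71199629-71199878 for Fabp1 and chr3:122894822-122895071 for Fabp2. The GENCODE start of Fabp1 lies 52 bases upstream of the RefSeq start, inside the window, and that of Fabp2 is the same base.
Fabp1: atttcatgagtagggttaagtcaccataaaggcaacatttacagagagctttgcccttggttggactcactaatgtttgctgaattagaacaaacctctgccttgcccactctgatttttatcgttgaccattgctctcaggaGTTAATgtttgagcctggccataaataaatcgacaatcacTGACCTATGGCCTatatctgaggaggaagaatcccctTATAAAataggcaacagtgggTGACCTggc
Fabp2: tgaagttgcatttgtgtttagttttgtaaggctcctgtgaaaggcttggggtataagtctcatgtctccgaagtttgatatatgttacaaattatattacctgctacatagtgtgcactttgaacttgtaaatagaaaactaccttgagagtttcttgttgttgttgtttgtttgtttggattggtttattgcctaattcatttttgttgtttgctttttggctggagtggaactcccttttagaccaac
Capitals mark every match, on either strand, to the searched motifs. The first motif is AGGTCA, the core site of many nuclear receptors. The next is a direct repeat of that core with any 1 base between the copies, matched with at most 1 mismatch, which is the form bound by PPAR and HNF4 receptors. The others are the TATA box letters TATAAA and the letters GTTAAT, a core of HNF1 sites. In Fabp1 the letters GTTAAT begin 107 bases upstream of the RefSeq start, the direct repeat TGACCTATGGCCT begins 67 bases upstream with 1 mismatch, TATAAA begins 30 bases upstream, and a further TGACCT begins 9 bases upstream. The first TGACCT is part of the direct repeat. Among 32851 windows of the same length, AGGTCA was found in 14% and TATAAA in 12.4%. GTTAAT was found in 6.43% and the direct repeat in 0.484%. RefSeq windows were at hand for 6 of the 9 genes, but not for Mogat2, Dgat1 and Dgat2. Fabp1 was the only one of the 6 with a match to any of these letters. A match describes the sequence and is not a bound site, and a relation to the level of Fabp1 was not tested.

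Fabp2 encodes the intestinal fatty acid-binding protein, which is made almost exclusively by enterocytes. It lies on mm10 chromosome 3 from 122895072 to 122899506 on the plus strand (ENSMUSG00000023057), with the antisense gene 4933405D12Rik overlapping it. Normalised counts were 324366, 286521, 276823 and 190583 in WT control and 339396, 343105 and 323078 in KO control. On ezetimibe they were 276861, 231709, 272803 and 203075 in WT, and 274933, 270057, 369736 and 277789.5 in KO. On the control diet only KO replicate 3 lay below the highest WT library, by a small margin, and on ezetimibe replicate 3 of KO stood far above its group. The log2 fold change of KO over WT was 0.34 ± 0.214 (SE, adjusted p = 0.492 in limma) on the control diet and 0.28 ± 0.198 (SE, adjusted p = 0.469 in limma) on ezetimibe. Averaged over the diets it was 0.31 ± 0.146 (SE, adjusted p = 0.228 in limma). Ezetimibe against the control diet gave −0.12 in WT and −0.18 in KO (adjusted p = 0.999 and 0.646 in limma).

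Fatty acid transport and activation were represented by Slc27a4 and Acsl5. Slc27a4 encodes FATP4, a fatty acid transport protein with acyl-CoA synthetase activity (ENSMUSG00000059316, mm10 chromosome 2, 29802634 to 29817522, plus strand). It had 38495.5, 28254, 27887 and 21990.2 normalised counts in WT control and 29348, 29048 and 29389 in KO control. On ezetimibe it had 31262, 24988, 29971 and 26804 in WT, and 28349, 33129, 45069 and 36431 in KO. The 3 KO control libraries lay within the spread of WT control, and on ezetimibe KO replicates 2, 3 and 4 lay above every WT library while KO replicate 1 did not. The log2 fold change of KO over WT was 0.03 ± 0.176 (SE, adjusted p = 0.957 in limma) on the control diet and 0.32 ± 0.163 (SE, adjusted p = 0.322 in limma) on ezetimibe. The interaction was 0.29 ± 0.240 (SE, adjusted p = 0.752 in limma).

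Acsl5 encodes a long-chain acyl-CoA synthetase abundant in the small intestine (ENSMUSG00000024981, mm10 chromosome 19, 55251938 to 55297720, plus strand), and it overlaps Zdhhc6 on the other strand. It ranged from 34544 to 48854 in WT control, from 35171 to 38847 in KO control, from 30653 to 38109.7 in WT ezetimibe and from 31674 to 49043 in KO ezetimibe. All 4 ranges overlapped. The log2 fold change of KO over WT was −0.09 ± 0.156 (SE, adjusted p = 0.859 in limma) on the control diet and 0.22 ± 0.144 (SE, adjusted p = 0.427 in limma) on ezetimibe.

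The monoacylglycerol route starts with MOGAT2, which adds an acyl chain to monoacylglycerol, and ends with a diacylglycerol acyltransferase, DGAT1 or DGAT2. Mogat2 (ENSMUSG00000052396, mm10 chromosome 7, 99219084 to 99238619, minus strand, overlapped by the antisense gene Gm45012) had 8519, 7234.5, 7156 and 6651.5 normalised counts in WT control and 8278, 8445 and 9181.5 in KO control. On ezetimibe it had 8291, 6600.5, 7480.5 and 7031 in WT, and 8075, 7801, 9147 and 8561 in KO. On each diet every KO library stood above every WT library except WT replicate 1. The log2 fold change of KO over WT was 0.23 ± 0.105 (SE, adjusted p = 0.327 in limma) on the control diet and 0.19 ± 0.0973 (SE, adjusted p = 0.321 in limma) on ezetimibe. Averaged over the diets it was 0.21 ± 0.0716 (SE, 95% interval 0.06 to 0.36), or 1.16-fold, and was not called (adjusted p = 0.10 in limma). Without WT control replicate 1 limma called it, at 0.25 (adjusted p = 0.0391), in a fit that called 8.41% of all genes, as did DESeq2 with all libraries (adjusted p = 0.0475). Over 27 alternatives the adjusted p ran from 0.0391 to 0.874.

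Dgat1 (ENSMUSG00000022555, mm10 chromosome 15, 76502015 to 76511953, minus strand) had the narrowest spread of the 9 genes. It had 15052, 13313, 14632 and 12838 normalised counts in WT control and 14956, 16039 and 16345 in KO control. On ezetimibe it had 15163, 14938, 15668 and 13524 in WT, and 17178, 15775, 15624 and 17375 in KO. The KO libraries were in the upper part of the distribution on both diets, with 1 of them below the highest WT library each time. The log2 fold change of KO over WT was 0.18 ± 0.0953 (SE, adjusted p = 0.404 in limma) on the control diet and 0.15 ± 0.0883 (SE, adjusted p = 0.365 in limma) on ezetimibe. Averaged over the diets it was 0.17 ± 0.065 (SE, adjusted p = 0.145 in limma), and DESeq2 called it (adjusted p = 0.0415). Over 27 alternatives the adjusted p ran from 0.0415 to 0.793.

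Dgat2 (ENSMUSG00000030747, mm10 chromosome 7, 99153658 to 99182719, minus strand) encodes an enzyme of the same step with no sequence kinship to DGAT1. It lies 36.4 kb from Mogat2 on the same chromosome, and both belong to one acyltransferase family. It had 13310, 7659.5, 7674 and 7786 normalised counts in WT control and 7252, 8668 and 8053 in KO control. On ezetimibe it had 8641, 5354, 8015 and 7307 in WT, and 6127, 8632, 10009.5 and 11283 in KO. WT control replicate 1 was the highest of all libraries, and without it the WT and KO control values were interleaved. The log2 fold change of KO over WT was −0.15 ± 0.224 (SE, adjusted p = 0.820 in limma) on the control diet, or 0.05 without that library, and 0.29 ± 0.207 (SE, adjusted p = 0.474 in limma) on ezetimibe. Its interaction was 0.43 ± 0.305 (SE, adjusted p = 0.720 in limma).

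The glycerol phosphate route starts with a glycerol-phosphate acyltransferase such as GPAT3, and AGPAT2 adds the next acyl chain to give phosphatidic acid. Agpat2 (ENSMUSG00000026922, mm10 chromosome 2, 26593057 to 26604417, minus strand) is overlapped by Egfl7 and Gm20532 on the other strand. It ranged from 4415 to 6276.5 normalised counts in WT control, from 5609 to 5961 in KO control, from 4059 to 5729 in WT ezetimibe and from 4542 to 7273 in KO ezetimibe. Gpat3 (ENSMUSG00000029314, mm10 chromosome 5, 100845713 to 100899102, plus strand) is overlapped by 4930458D05Rik and Gm42987. It ranged from 3321 to 4079 in WT control, from 3622 to 4609 in KO control, from 3726 to 4256 in WT ezetimibe and from 3604 to 4745 in KO ezetimibe. For both genes the ranges of the 4 groups overlapped. The log2 fold changes in KO were 0.14 ± 0.157 and 0.23 ± 0.146 for Agpat2 on the control diet and on ezetimibe, and 0.17 ± 0.117 and 0.08 ± 0.109 for Gpat3 (SE, limma adjusted p between 0.409 and 0.733). Whether reads were counted by strand is not stated, so the reads of Fabp2, Acsl5, Mogat2, Agpat2 and Gpat3 could not be told apart from those of their overlapping partners.

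As a group, none of the 9 genes was called by limma in KO on the control diet, where 0.371% of the genes tested were called. By edgeR 0 of 9 were called (0.0839% of all genes) and by DESeq2 1 of 9, Fabp1 (3.58% of 12627 genes). Here and below, DESeq2 shares are over the genes to which it gave an adjusted p, between 11247 and 14288 by comparison. An unadjusted limma p under 0.05 was found for 2 of the 9, Fabp1 and Mogat2, and for 14.7% of all genes. The median log2 fold change of the 9 was 0.17, with 7 positive, against −0.01 over all genes tested. With quantile normalisation 7 were again positive and the median was 0.05. On ezetimibe 0 of 9 were called by limma (0.00699% of all genes), by edgeR (0.00699%) or by DESeq2 (0.694%), and 0 of 9 had an unadjusted limma p under 0.05, against 16.4% of all genes. All 9 log2 fold changes in KO on ezetimibe were positive, between 0.08 and 0.32, with a median of 0.22 against 0.00 over all genes. With quantile normalisation 6 of the 9 were positive and the median was 0.02. That method gives genes of the same rank the same value in every library. It leaves little room for the topmost genes to differ, and Fabp2 ranked 1 of all genes by mean count.

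**Figure D2:**
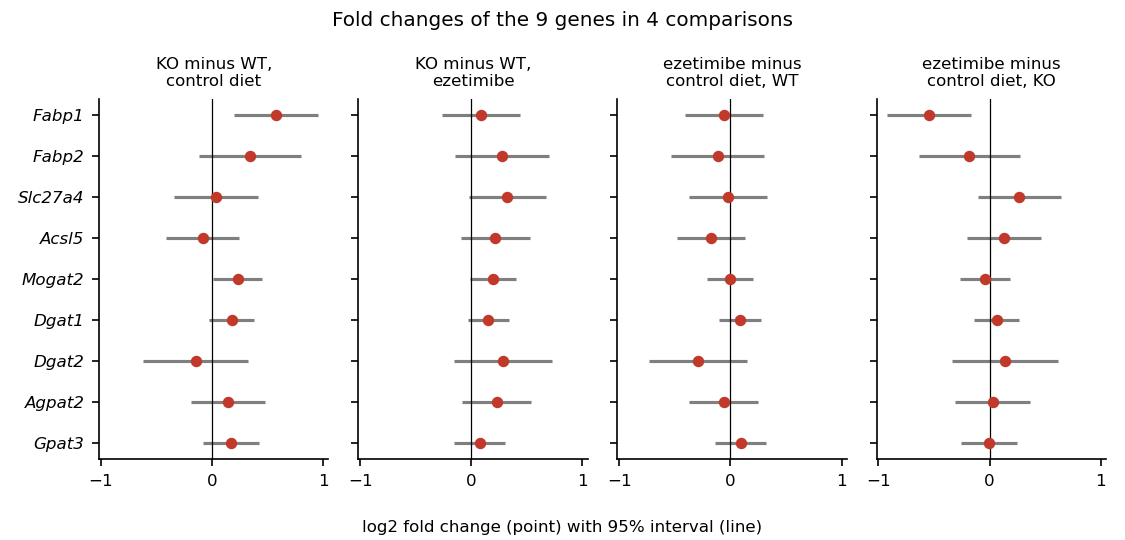
Log2 fold changes (horizontal axis) of the 9 genes (vertical axis) in 4 comparisons, with 95% intervals from limma. The intervals that leave out 0 on the control diet are those of Fabp1, at 0.57, and Mogat2, at 0.23, and in KO on ezetimibe against control that of Fabp1, at −0.54.

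Averaged over the diets, which uses the same libraries again, 0 of 9 were called in KO by limma, where 4.04% of all genes were called, and 0 of 9 by edgeR (3.85%). DESeq2 called Mogat2 and Dgat1, 2 of 9 (9.00%). All 9 log2 fold changes were positive, between 0.07 for Acsl5 and 0.33 for Fabp1, with a median of 0.18 against 0.00 over all genes, and with quantile normalisation 7 were positive and the median was 0.05. With the enterocyte score as a covariate 6 were positive and the median was 0.08, and with the proliferation score 3 were positive and the median was −0.05. The proliferation score, a mean log2 level, was at most 6.674 in a KO library and at least 6.726 in a WT library. A fit with this score therefore cannot clearly separate it from genotype. The enterocyte score was higher in every KO library than in every WT library on ezetimibe, but overlapped on the control diet. The fit with that score has the same limit for the ezetimibe libraries. Unadjusted limma p-values under 0.05 were found for 3 of the 9, Fabp1, Mogat2 and Dgat1, and for 22.2% of all genes.

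In no comparison of 2 groups did the libraries of a member separate fully. On the control diet 6.59% of all genes were higher in every KO library than in every WT library and 5.57% were lower. On ezetimibe the shares were 5.09% and 4.84%. Between the diets they were 2.26% and 1.21% in WT and 8.64% and 9.38% in KO.

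Markers of the absorbing cell moved with the ezetimibe comparison. The summed level of the 12 enterocyte markers lay between 595933 and 733419 normalised counts in KO ezetimibe and between 450868 and 565335 in WT ezetimibe, without overlap. All 12 had positive log2 fold changes, with a median of 0.40, which was larger than the median of 0.22 of the 9 genes. Of the 12, 0 were called by limma and 6 had an unadjusted limma p under 0.05, against 16.4% of all genes. Singly, 4 of the 12 were higher in every KO library than in every WT library, against 5.09% of all genes. On the control diet the sums ran from 462411 to 608937 in KO and from 458135 to 636500 in WT, and the median of the 12 was 0.00. With the enterocyte score as a covariate, an alternative chosen after seeing the data, 2 of the 9 genes stayed positive in KO on ezetimibe and the median was −0.03. That score, a mean log2 level, was at least 15.02 in KO ezetimibe and at most 14.92 in WT ezetimibe. The fit therefore cannot clearly separate it from genotype on ezetimibe. On the control diet that fit left the median at 0.17 and 7 of 9 positive.

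**Figure D3:**
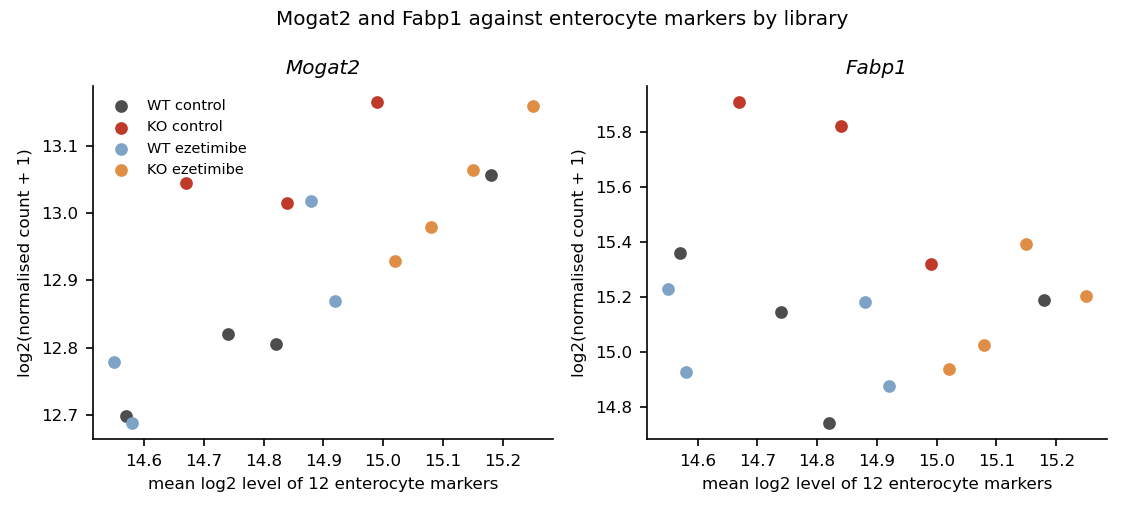
Log2(normalised count + 1) of Mogat2 (left) and Fabp1 (right) against the mean log2 level of 12 enterocyte markers, with 1 point per library coloured by genotype and diet. Mogat2 is higher in libraries with more enterocyte marker RNA, while the highest Fabp1 points, KO control replicates 1 and 2, do not have the highest marker levels.

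Other markers moved too. The summed level of 14 proliferation markers, none of them at 0 in a group, was between 1725 and 2763 in KO control and between 2603 and 5363 in WT control, with a median log2 fold change of −1.33. On ezetimibe it was between 2076 and 2624 in KO and between 2691 and 3748 in WT, with a median of −0.62. With the proliferation score as a covariate the median of the 9 genes was −0.13 in KO on the control diet and 0.08 on ezetimibe, against 0.17 and 0.22 without it, and Fabp1 on the control diet was at 0.72. As that score was lower in every KO library than in every WT library, these fits cannot clearly separate it from genotype. Of 4 markers enriched in the proximal intestine only Lct, which is also an enterocyte marker, was higher in every KO ezetimibe library than in every WT ezetimibe library. Lct made up between 89.2% and 94.8% of the sum of the 4 in a library. Without it the sum lay between 2399 and 3151 in KO ezetimibe and between 2034 and 2614 in WT ezetimibe, which overlapped. The sum of 4 markers enriched in the ileum lay between 2398 and 6190.4 in KO ezetimibe and between 1581 and 2227 in WT ezetimibe, while 0 of the 4 separated singly. The 8 Paneth cell markers had medians of −1.68 on the control diet and −0.65 on ezetimibe, and the 8 T and NK cell markers −0.61 and −0.57. With the adipocyte score as a covariate the median of the 9 genes was 0.17 on each diet. The part of the position, Paneth and T and NK cell markers in the values of the 9 genes was not tested.

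Ezetimibe against the control diet in WT called 0 of the 9 genes by limma (0.217% of all genes), by edgeR (0.238%) or by DESeq2 (0.721%), with 0 unadjusted p-values under 0.05. The log2 fold changes lay between −0.29 for Dgat2 and 0.09 for Gpat3, with a median of −0.06. In KO limma called 0 of 9 (0.727%), edgeR 0 (0.678%) and DESeq2 1, Fabp1 (10.0%). Fabp1 was also the 1 gene of the 9 with an unadjusted limma p under 0.05, against 22.9% of all genes. The other 8 lay between −0.18 for Fabp2 and 0.27 for Slc27a4, and the median of the 9 was 0.03. The interaction called 0 of 9 by limma (0% of all genes), by edgeR (0%) or by DESeq2 (0.0350%), with 0 of 9 at an unadjusted limma p under 0.05. Averaged over the genotypes, ezetimibe called 0 of 9 by limma (2.48%), edgeR (2.57%) or DESeq2 (7.30%), and 1 of 9 had an unadjusted limma p under 0.05, where all genes tested gave 20.2%. This was Fabp1, with −0.30 ± 0.121 (SE, adjusted p = 0.184 in limma).

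Across the 15 libraries the 9 genes varied together. All 36 pairs had a positive Pearson r of log2 levels, from 0.015 to 0.836 with a median of 0.54, given here as a description since the libraries share scaling and groups. Slc27a4 with Agpat2 (0.836) and Fabp2 with Mogat2 (0.83) were the closest pairs. Fabp1 stood apart, with a median r of 0.249 to the other 8 genes, against 0.592 over the 28 pairs without it. After the group means were removed these medians were 0.137 and 0.625. The mean of the standardised levels of the 9 genes was highest in KO ezetimibe replicates 3 and 4, at 1.26 and 1.06, followed by WT control replicate 1 at 0.86, and lowest in WT control replicate 4 at −1.20.

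The variation between libraries of the same group was then set against the marker scores, with group means removed, over 15 libraries and 18 relations. Mogat2 was higher where the enterocyte score was higher (Pearson r = 0.886, Spearman rho = 0.804, permutation p = 0.00061 and 0.00486, adjusted 0.011 and 0.0219). Slc27a4 did too (r = 0.81, rho = 0.839, permutation p = 0.00174 and 0.00089, adjusted 0.0128 and 0.016), as did Fabp2 (r = 0.764, rho = 0.704, permutation p = 0.0128 and 0.0124, adjusted 0.046 and 0.0445). Without WT control replicates 1 and 4, the libraries farthest from the median score, r was 0.806 for Mogat2, 0.622 for Slc27a4 and 0.615 for Fabp2. For Fabp1 the enterocyte relation was r = −0.226 and rho = −0.293 (permutation p = 0.494 and 0.339, adjusted 0.524 and 0.382). Slc27a4 and Agpat2 were lower where the proliferation score was higher, with r = −0.695 and −0.612 and rho = −0.679 and −0.668. Their permutation p-values were 0.00304 and 0.00213 for r (adjusted 0.0137 and 0.0128) and 0.00355 and 0.00352 for rho (both 0.0213 adjusted). Without the same libraries r was −0.397 and −0.438, so these relations were weaker without them. Leaving out the most extreme scores narrows the range of a score and can by itself lower r. No p was computed without these libraries, so how far any of the relations rests on them was not tested. The other 13 relations did not pass on adjustment. Relations to the scores were computed for the member genes only. Whether other genes follow these scores as closely was not tested, so the relations are not shown to be particular to the members.

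The genes whose pattern over the 15 libraries was most like the mean of the 9, among 9648 candidates, were Anxa2 (r = 0.951), Zmat3 (0.927), Tradd (0.919), Alas1 (0.918) and Cdk11b (0.917). Anxa2 encodes a membrane-binding annexin and Alas1 the first enzyme of heme synthesis.

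A wider list of 54 genes of the same pathway was examined, of which 45 were tested. The list was chosen with earlier results of these data known, so its shares beside those of all genes are descriptions and not tests. In KO on the control diet limma called 1 of them higher (0.147% of all genes) and 0 lower (0.224%). This was Dbi, which encodes the acyl-CoA-binding protein that carries activated fatty acids in the cytosol. Dbi had 6899, 7243, 6219 and 7258 normalised counts in WT control and 10856.5, 10946 and 9259.5 in KO control. Every KO library was thus above every WT library, as for 6.59% of all genes. Its log2 fold change was 0.58 ± 0.113 (SE, adjusted p = 0.0470 in limma). It was not called by edgeR, and over 20 alternatives the adjusted p ran from 0.000259 to 0.251. It stayed called in 1 of the 7 fits that left out a library, the one without WT control replicate 1. In the other 6 it was between 0.53 and 0.66. The authors' deposited table lists it at 0.58 (adjusted p = 0.000272). Clps, the cofactor of pancreatic lipase, was at −1.18 ± 0.314 (SE, adjusted p = 0.101 in limma), with every KO library below every WT library, and its adjusted p over 20 alternatives ran from 0.00864 to 0.872. The authors' deposited table lists Clps at −1.25 (adjusted p = 0.00904).

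On ezetimibe 0 of the 45 were called by limma or edgeR (0.00699% of all genes by each) and 1 by DESeq2, Pnpla2 (0.694%), and 12 had an unadjusted p under 0.05, which is 26.7% where all genes tested gave 16.4%. The smallest p-values were those of Pnpla2, which encodes the triglyceride lipase ATGL, at 0.47 ± 0.111 (SE, adjusted p = 0.209 in limma), and of Acsl3, a synthetase of lipid droplets and the endoplasmic reticulum, at 0.55 ± 0.186 (SE, adjusted p = 0.237 in limma). The authors' deposited table lists Pnpla2 on ezetimibe at 0.47 (adjusted p = 0.0238). Averaged over the diets 5 of the 45 were called higher in KO (1.64% of all genes) and 0 lower (2.40%), while 19 had an unadjusted p under 0.05, which is 42.2% where all genes tested gave 22.2%. Pnpla2 rose by 0.40 ± 0.0816 (SE, adjusted p = 0.0232 in limma) and Dbi by 0.34 ± 0.077 (SE, adjusted p = 0.0291 in limma). Lpcat3, a phospholipid acyltransferase, rose by 0.29 ± 0.0701 (SE, adjusted p = 0.0352 in limma). Plpp1, a lipid phosphate phosphatase, rose by 0.39 ± 0.0998 (SE, adjusted p = 0.0437 in limma) and Acsl3 by 0.53 ± 0.137 (SE, adjusted p = 0.0444 in limma). Over the 15 fits that left out a library, Pnpla2 stayed called in 13, Dbi in 12, Lpcat3 in 5, and Plpp1 and Acsl3 in 4 each. Under the 12 other settings Pnpla2 stayed called in 9, Dbi in 8, Lpcat3 and Acsl3 in 7 each, and Plpp1 in 6. With the enterocyte score as a covariate none of the 5 was called. On ezetimibe that score was higher in every KO library than in every WT library, so this fit cannot clearly separate it from genotype there. With the proliferation score none was called either, and the log2 fold changes were 0.13 for Pnpla2, 0.40 for Dbi, 0.05 for Lpcat3, 0.19 for Plpp1 and 0.13 for Acsl3. That score was lower in every KO library than in every WT library, so the fit with it cannot clearly separate it from genotype. Over 27 alternatives the highest adjusted p was 0.621 for Pnpla2, 0.224 for Dbi, 0.843 for Lpcat3, 0.621 for Plpp1 and 0.798 for Acsl3, and the lowest ran from 0.000738 for Pnpla2 to 0.00995 for Plpp1. The median of the 45 was 0.09, against 0.00 over all genes. Given how the list was chosen, these shares and medians describe it and do not test it.

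**Figure D4:**
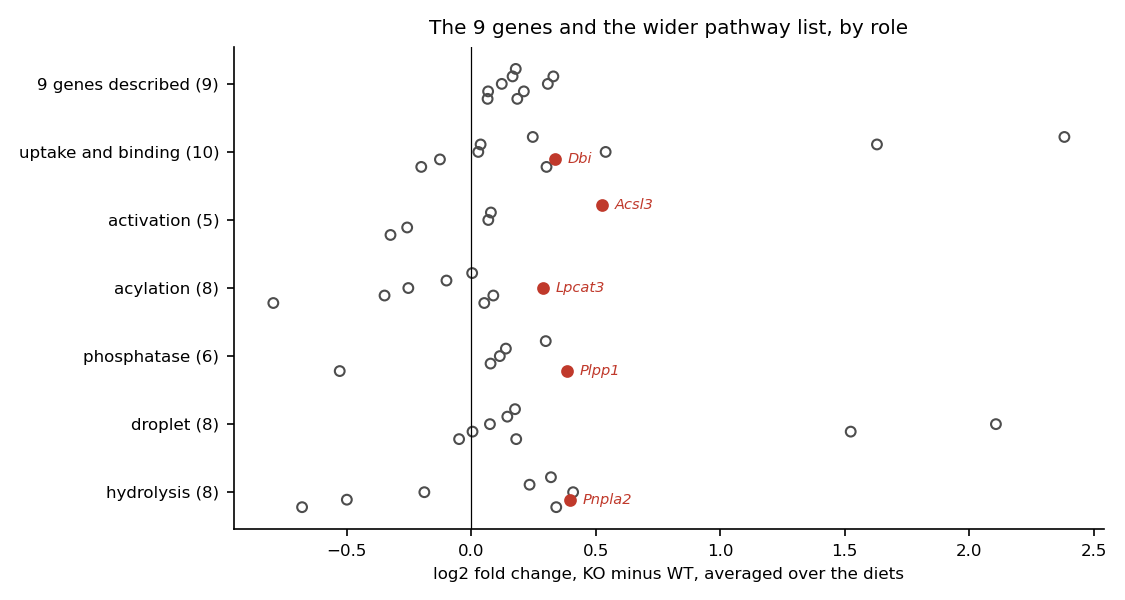
Log2 fold changes in KO against WT averaged over the diets (horizontal axis) for the 9 genes and for the 45 other pathway genes tested, 1 circle per gene, in rows by role with the number of genes in brackets. Filled circles with names are the 5 called by limma, Pnpla2, Dbi, Lpcat3, Plpp1 and Acsl3, while the 9 genes lie between 0.07 and 0.33 and none is filled.

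Between the diets 0 of the 45 were called in WT and 0 in KO by limma and by edgeR, where limma called 0.217% and 0.727% of all genes. Unadjusted limma p-values under 0.05 were found for 4 and 5 of the 45, or 8.89% and 11.1%, against 5.08% and 22.9% of all genes. DESeq2 called 0 in WT (0.721% of the genes to which it gave an adjusted p) and 1 in KO, Fitm2 (10.0%). The smallest p-values in WT were those of Pnliprp2, a lipase-related protein, at −0.99 ± 0.306 (SE, adjusted p = 0.463 in limma), and Dbi at 0.28 ± 0.105 (SE, adjusted p = 0.726 in limma). In KO they were those of Fitm2, a protein of lipid droplet formation, at −0.63 ± 0.162 (SE, adjusted p = 0.0574 in limma), and Acsl4, a synthetase that prefers arachidonic acid, at 0.59 ± 0.208 (SE, adjusted p = 0.118 in limma). Every KO ezetimibe library was below every KO control library for Fitm2, as for 9.38% of all genes. Its adjusted p ran from 0.0102 to 0.276 over 20 alternatives. Averaged over the genotypes 0 of the 45 were called by limma (2.48% of all genes) or edgeR (2.57%) and 1 by DESeq2, Fitm2 (7.30%). An unadjusted p under 0.05 was found for 9 of the 45, where all genes tested gave 20.2%. Fitm2 then had −0.37 ± 0.110 and Acsl4 0.46 ± 0.142 (SE, adjusted p = 0.0809 and 0.0879 in limma). The interaction called 0 of the 45 by limma, edgeR or DESeq2, and 3 had an unadjusted p under 0.05, which is 6.67% where all genes tested gave 7.02%. Its smallest p-values were those of Dbi, at −0.49 ± 0.154, and Fitm2, at −0.52 ± 0.220 (SE, limma adjusted p = 0.681 for each). Fabp4, the binding protein of adipocytes, was named after its values were seen. It had 5.73, 162.6, 4.12 and 9.17 normalised counts in WT control and 30.8, 261.5 and 106.1 in KO control. WT control replicate 2 stood far above the rest of its group and lay above 2 of the 3 KO libraries, so the groups overlapped. As a difference of mean log2 levels, KO minus WT was 2.64 ± 1.22 (SE, adjusted p = 0.333 in limma). Of the 9 adipocyte markers, none was at 0 in every library of a group, and their summed level lay between 6456 and 8005 in KO control and between 6449 and 10057.9 in WT control. Pck1, which enterocytes also express, and Cidec, a lipid droplet gene of the wider list, made up between 89.5% and 99.9% of that sum in a library. The sum of the other 7 lay between 75.5 and 726.6 in KO control and between 8.24 and 421.4 in WT control, and between 111.4 and 247.7 in KO ezetimibe and between 8.45 and 326.3 in WT ezetimibe. The median log2 fold change of the 8 tested was 1.92 on the control diet, with 6 positive. The part of adipocyte RNA in the Fabp4 value was not tested.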

How the data were processed

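RNA came from frozen distal jejunum by TRIzol, and libraries were prepared with a NEBNext Ultra II kit, per the labels' protocols. The submitters' processing notes name FastQC, STAR 2.6.0c, DESeq2 and the build mm10. Read counter, annotation and use of strand: not given in the sources used here. One deposited table of all libraries holds a signal, counts divided by size factors by the authors. Its values were whole multiples of 1 read's worth in 100% of cases (tolerance 1e-06), which gave back whole reads. The authors also deposited 2 tables of their own comparisons, which give a mean signal, a log2 fold change, a score, a p-value and a fold ratio, per the file headers.

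The members and lists were chosen with earlier results of these data known. Genes named are the 9 members, called genes of the wider list and its 2 smallest p-values per comparison, the 5 genes most like the members, and Gramd1b, Gramd1c and Abca1 as checks. Fabp4 was named after its value was seen. Abca1 fell by 3.26 on the log2 scale with ezetimibe in WT. Of the identifiers, 99.93% matched GENCODE M21 (GRCm38, the assembly of mm10). Log2(value + 1) was fitted over 15 libraries with limma 3.58.1 (trend, R 4.3.3) for genes with at least 10 in at least 3 libraries, Benjamini-Hochberg adjusted over 14299 genes, and called under 0.05. This scale understates the change of low genes. Groups came from the labels, which do not say that libraries come from separate mice, so p-values reflect only how these samples spread, which may be technical. Alternatives were pseudocounts of 0.5 and 5, no filter, a mean of at least 50, scaling by TMM or quantiles, only the compared groups, a replicate block, each library left out, and edgeR 4.0.16 and DESeq2 1.42.0 on the recovered reads. Covariates (enterocyte, proliferation and adipocyte scores, each the mean log2 level of a list) were added after seeing the data. Marker relations used 100000 permutations within groups. The tests were first tried on simulated data, with no change as small as those of the 9 genes. The largest change of the 9, 1.49-fold for Fabp1 in KO on the control diet, was only slightly below the smallest simulated one. As the spread was simulated alike for all genes, that trial does not tell how often changes of such size would be called in these data.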

Additional observations from a re-analysis of the deposited data

Results flagged for a closer look

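Among 57 groups of 4 libraries examined (the 9 members and 10 named genes of the wider list in 3 groups each), 5 held a library far from the other 3. Chance alone flags about 1 group in 20. Fabp2 in KO ezetimibe replicate 3 had 369736 normalised counts, against 270057 to 277789.5 in the others of its group. Dgat2 in WT control replicate 1 had 13310.2, against 7659.5 to 7785.5. Fitm2 in WT ezetimibe replicate 2 had 325.8, against 241.8 to 253.5. Fabp4, which was named after its value was seen, had 162.6 in WT control replicate 2, against 4.12 to 9.17, and 133.1 in WT ezetimibe replicate 1, against 1.88 to 21.7. KO ezetimibe replicate 3 and WT control replicate 1 were also among the 3 libraries with the highest mean standardised level of the 9 genes, at 1.26 and 0.86.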

How the results depend on the processing

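The number of the 9 genes called was 0 in all 7 comparisons. It was 0 or as follows under the alternatives. With DESeq2 it was 1 in KO on the control diet (Fabp1), 1 for ezetimibe in KO (Fabp1) and 2 in KO averaged over the diets (Mogat2 and Dgat1). With the replicate number as a block it was 1 in KO on the control diet, 1 for ezetimibe in KO, 1 in KO averaged and 1 for ezetimibe averaged, each time Fabp1 (limma adjusted p = 0.0460, 0.0186, 0.0451 and 0.0475). These fits called 1.62%, 13.4%, 6.45% and 10.4% of all genes, against 0.371%, 0.727%, 4.04% and 2.48% without the block. Same-numbered libraries deviated together with r between −0.242 and 0.331, over 0.1 in 12 of 21 pairs. Libraries of different number were not compared in this way, so these r cannot decide whether the numbers mark a pairing. The labels do not say what the numbers mark, and the main fit did not use them. With the proliferation score as a covariate it was 2 for ezetimibe in KO (Fabp1 and Slc27a4, limma adjusted p = 0.0375 and 0.0467), in a fit that called 20.7% of all genes. With 1 library left out it was between 0 and 1 for ezetimibe in KO and for KO averaged, and 0 in the other 5 comparisons. Of 1467 alternative values of the 63 gene and comparison values, 1358 kept direction and side of the threshold, 97 changed sign with no call on either side, 12 became called, and 0 calls reversed. Counts over all genes moved far more, from 3 to 452 around 53 in KO on the control diet, 1 to 78 around 1 in KO on ezetimibe, 28 to 93 around 31 for ezetimibe in WT and 16 to 2959 around 104 for ezetimibe in KO. They ran from 0 to 86 around 0 for the interaction, 4 to 1236 around 578 in KO averaged and 267 to 1489 around 354 for ezetimibe averaged. With 1 library left out they ran from 3 to 126, 1 to 1, 17 to 34, 5 to 456, 0 to 1, 33 to 1202 and 149 to 575 in the same order. Of the wider list, between 0 and 2 were called in KO on the control diet and between 0 and 8 in KO averaged, around 1 and 5. Around 0, the wider list ran from 0 to 6 for ezetimibe in KO, 0 to 3 for ezetimibe averaged and 0 to 1 in KO on ezetimibe. It stayed at 0 for ezetimibe in WT and for the interaction. The cause was not tested. At 13855034 reads or more per library, the lowest value of a member was 3321 normalised counts.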
